A study of Mus musculus with 18 samples.

Results

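The genes of the epidermal cornified envelope were followed through B16F10 melanomas. The set was chosen by name: every gene of the deposited table whose symbol begins with Flg, or with Sprr or Lce and a digit, together with Ivl, Hrnr, Tgm1, Tgm3, Krtdap, Sbsn, Casp14, Klk5 and Klk7. It holds 48 of the 41079 genes in the table. The rule uses names only, but it was set with earlier results of these data known. Of the 48 genes, 32 averaged 1 FPKM or more across the tumors and entered the tests across genes, 47 averaged 0.1 FPKM or more, and 0 were listed at 0 in every tumor. FPKM is a fragment count scaled to the length of the gene and to the sequencing depth of the tumor.

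B16F10 is a mouse melanoma cell line. The cells were implanted under the flank skin of C57BL/6 females, and from day 6, at a volume of about 50 mm3, each tumor was injected directly every 2 days until collection 48 h after the last injection. Poly(A) RNA of 18 tumors was sequenced, 3 in each of 6 groups that shared the cell line, the mouse strain and the route. The groups received PBS (the vehicle control), Free PS473 (a Pistol ribozyme designed to cut PD-L1 mRNA, injected without a carrier), PS473@CPs (the same ribozyme on cationic polymers), NKMOF-101-[Mn] (the manganese metal-organic framework with no ribozyme), M5@NKMOF-101-[Mn] (the framework with a catalytically inactive mutant ribozyme) or PS473@NKMOF-101-[Mn] (the framework with the active ribozyme). The titles of the last 3 tumors spell that framework NKMOF-102-[Mn], and their protocol text spells it NKMOF-101-[Mn]. The records number the tumors and do not say whether each came from a mouse of its own, so p values here measure the spread between tumors as numbered.

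Keratinocytes of the outer epidermis replace their plasma membrane with the cornified envelope, a shell of proteins cross-linked by transglutaminases and coated with lipid. Involucrin is laid down early, loricrin and the small proline-rich proteins (SPRR) reinforce the shell, and the late cornified envelope proteins (LCE) are added near its completion, while filaggrin bundles keratin filaments and is later broken down. The SPRR1, SPRR2 and LCE3 genes are known for high expression in injured or inflamed epidermis, whereas LCE1 genes belong to normal differentiation. Melanoma cells are of the melanocyte lineage and do not build an envelope.

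Most of these genes are neighbours. In RefSeq gene order 41 of the 48 lie on mouse chromosome 3, in the epidermal differentiation complex. There, 17 genes from Sprr2a1 to Ivl follow each other with no other protein-coding gene between them. Counted in the same way, then come 13 genes from Lce6a to Lce1k, Lce1l alone, the 6 Lce3 genes, Lce1m alone, and Flg2, Flg and Hrnr. The other 7 lie outside it, 4 on chromosome 7 (Sbsn, Krtdap, Klk7 and Klk5) and 1 each on chromosomes 2 (Tgm3), 10 (Casp14) and 14 (Tgm1).

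The families differ in what they encode, which the coding sequences of Sprr2d and Lce1m show. Capitals mark proline codons (CCN) in Sprr2d and glycine codons (GGN) in Lce1m. They are GENCODE M21 coding sequences, written 5′ to 3′ without gaps, whole for Sprr2d and the first 300 bases for Lce1m.
Sprr2d: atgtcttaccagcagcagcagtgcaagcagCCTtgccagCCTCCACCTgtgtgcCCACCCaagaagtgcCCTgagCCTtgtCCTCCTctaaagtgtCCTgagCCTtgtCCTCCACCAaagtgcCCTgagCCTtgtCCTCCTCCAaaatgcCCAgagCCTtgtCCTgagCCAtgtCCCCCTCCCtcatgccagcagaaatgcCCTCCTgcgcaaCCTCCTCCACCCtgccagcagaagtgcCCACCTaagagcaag
Lce1m: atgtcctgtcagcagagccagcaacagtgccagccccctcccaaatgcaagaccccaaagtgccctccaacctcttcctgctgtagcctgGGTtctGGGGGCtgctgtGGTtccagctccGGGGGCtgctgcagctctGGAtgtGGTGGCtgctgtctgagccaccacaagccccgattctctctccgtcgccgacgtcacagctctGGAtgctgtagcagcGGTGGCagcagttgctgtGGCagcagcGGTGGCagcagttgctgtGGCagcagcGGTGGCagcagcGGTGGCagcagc
In Sprr2d 35 of 85 codons are for proline, and in Lce1m 49 of 182 are for glycine (20 of the 100 shown). Within families the copies are close. The coding sequences of Sprr2a1 and Sprr2a2 are identical and each differs from Sprr2a3 by 3 edits, those of the 6 Lce3 genes share 94.6% to 99.3% of their bases, and those of the 14 Lce1 genes 56.4% to 95.7%. How the authors' counting shared fragments among such copies is not given in the sources used here, so values of single Sprr2a, Lce3 and close Lce1 genes are uncertain, and sums over a family are less so.

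The promoters of the families also differ in the letters they hold, which 5 of them show. RefSeq promoters, 300 bases from 250 before to 50 after the start, were found for 45 of the 48 genes on GRCm38.p6. Capitals mark matches on either strand to 3 patterns: AP-1 (TGANTCA), the TATA box (TATAAA) and C/EBP (TTNNGNAA). The windows are Sprr1a, chr3:92485832-92486131 on the minus strand, Sprr2d, chr3:92338890-92339189 on the plus strand, Krtdap, chr7:30787655-30787954 on the plus strand, Lce3d, chr3:92957140-92957439 on the plus strand, and Lce1m, chr3:93019012-93019311 on the minus strand.
Sprr1a: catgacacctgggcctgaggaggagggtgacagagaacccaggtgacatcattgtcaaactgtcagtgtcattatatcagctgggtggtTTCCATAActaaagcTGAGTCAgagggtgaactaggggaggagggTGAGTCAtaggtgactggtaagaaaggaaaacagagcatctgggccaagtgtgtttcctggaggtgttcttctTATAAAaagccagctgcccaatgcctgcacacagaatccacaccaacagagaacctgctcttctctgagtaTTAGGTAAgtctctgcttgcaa
Sprr2d: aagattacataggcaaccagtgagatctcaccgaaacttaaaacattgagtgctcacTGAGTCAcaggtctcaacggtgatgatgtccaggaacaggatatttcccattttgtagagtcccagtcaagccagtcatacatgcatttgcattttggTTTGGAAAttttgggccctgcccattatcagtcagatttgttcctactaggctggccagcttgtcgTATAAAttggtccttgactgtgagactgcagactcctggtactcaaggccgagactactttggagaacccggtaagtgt
Krtdap: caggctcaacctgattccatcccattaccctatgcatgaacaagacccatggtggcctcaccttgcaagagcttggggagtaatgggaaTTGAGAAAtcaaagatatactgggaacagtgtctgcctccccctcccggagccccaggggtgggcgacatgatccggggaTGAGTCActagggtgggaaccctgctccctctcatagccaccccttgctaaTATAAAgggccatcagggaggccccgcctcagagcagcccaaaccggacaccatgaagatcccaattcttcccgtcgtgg
Lce3d: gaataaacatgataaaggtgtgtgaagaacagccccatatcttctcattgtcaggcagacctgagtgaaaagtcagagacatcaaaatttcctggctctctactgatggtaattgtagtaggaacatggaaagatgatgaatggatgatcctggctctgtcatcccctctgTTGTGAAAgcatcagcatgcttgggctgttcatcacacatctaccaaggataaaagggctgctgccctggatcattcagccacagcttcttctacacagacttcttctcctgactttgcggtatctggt
Lce1m: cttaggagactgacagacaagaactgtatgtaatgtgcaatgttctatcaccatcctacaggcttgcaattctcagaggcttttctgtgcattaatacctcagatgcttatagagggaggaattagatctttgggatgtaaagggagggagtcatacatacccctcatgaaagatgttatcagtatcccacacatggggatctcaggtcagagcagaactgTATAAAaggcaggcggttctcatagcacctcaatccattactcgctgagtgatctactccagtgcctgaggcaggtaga
The AP-1 letters occurred in 7.93% of all 27025 promoters of this length and in 31.1% of the members' promoters. They were in 7 of 10 Sprr2 promoters and in all 3 of Ivl, Krtdap and Sbsn, but in 0 of 13 Lce1 and 0 of 6 Lce3 promoters. The C/EBP letters were in 40.7% of all promoters, in 6 of 6 Lce3, 9 of 10 Sprr2 and 2 of 13 Lce1 promoters. TATAAA was in 14.2% of all promoters and in 42.2% of the members', and in the 7 Sprr2 promoters that held it the first letter lay 29 bases before the start. Another pattern, CACCC (KLF), was in 56.7% of all promoters and 57.8% of the members'. No 2 different patterns overlapped in these windows. A match is a description of letters, not a binding site, and related copies are not independent. The median pairwise identity of promoters was 57.0% for the 6 Lce3 genes, 61.7% for the Sprr2 genes and 63.7% for the Lce1 genes.

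The tumors held very different amounts of this program, and the difference lay within every group. Summed over the 48 genes, the level was 0.884, 1611 and 299.5 FPKM in the PBS tumors, 1.52, 1.17 and 269 with Free PS473, 0.475, 939 and 11.2 with PS473@CPs, 297, 0.923 and 26.6 with NKMOF-101-[Mn], 0.786, 1.87 and 126 with M5@NKMOF-101-[Mn], and 0.773, 59.6 and 4.02 with PS473@NKMOF-101-[Mn]. Each group had at least 1 tumor near or below 1 FPKM and at least 1 tumor at 59.6 FPKM or more, so all 6 groups overlapped. The group means were 637 ± 857 FPKM (SD, n = 3) in PBS, 317 ± 539 FPKM (SD, n = 3) in PS473@CPs, 108 ± 164 FPKM (SD, n = 3) in NKMOF-101-[Mn], 90.5 ± 154 FPKM (SD, n = 3) in Free PS473, 42.8 ± 71.8 FPKM (SD, n = 3) in M5@NKMOF-101-[Mn] and 21.5 ± 33.0 FPKM (SD, n = 3) in PS473@NKMOF-101-[Mn]. Every SD was larger than its mean.

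**Figure D1:**
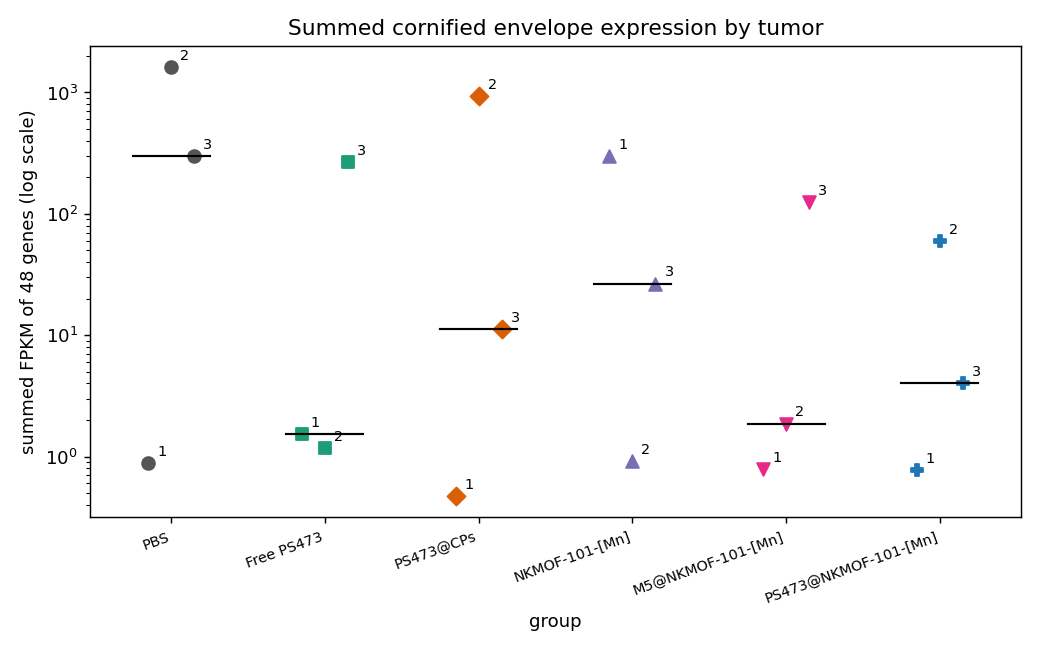
Summed FPKM of the 48 genes in each tumor (vertical axis, log scale) by group (horizontal axis), with the tumor's number beside each point and a line at the group's median. Each group spans from near or below 1 FPKM to at least 59.6 FPKM.

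The number of genes detected followed the same split. In PBS tumor 2 all 48 genes were above 0 and 47 had at least 3 fragments, and in PBS tumor 3 and Free PS473 tumor 3 the genes above 0 were 47 each. In PS473@CPs tumor 1 only 3 genes were above 0, and between 5 and 7 were in tumors 1 and 2 of M5@NKMOF-101-[Mn] and of Free PS473, tumor 2 of the empty framework and tumor 1 of PBS and of PS473@NKMOF-101-[Mn]. PBS tumor 2 held the highest value of 34 of the 48 genes, PS473@CPs tumor 2 of 7 and NKMOF-101-[Mn] tumor 1 of 7. The depth was 17198000 to 28379000 fragments per tumor, as worked out from the spacing of low values. At that depth 3 fragments, the floor set here, were worth 0.188 to 0.31 FPKM for Lce3d. A listing at 0 can hide a low level, and this floor covers counting error only.

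**Figure D2:**
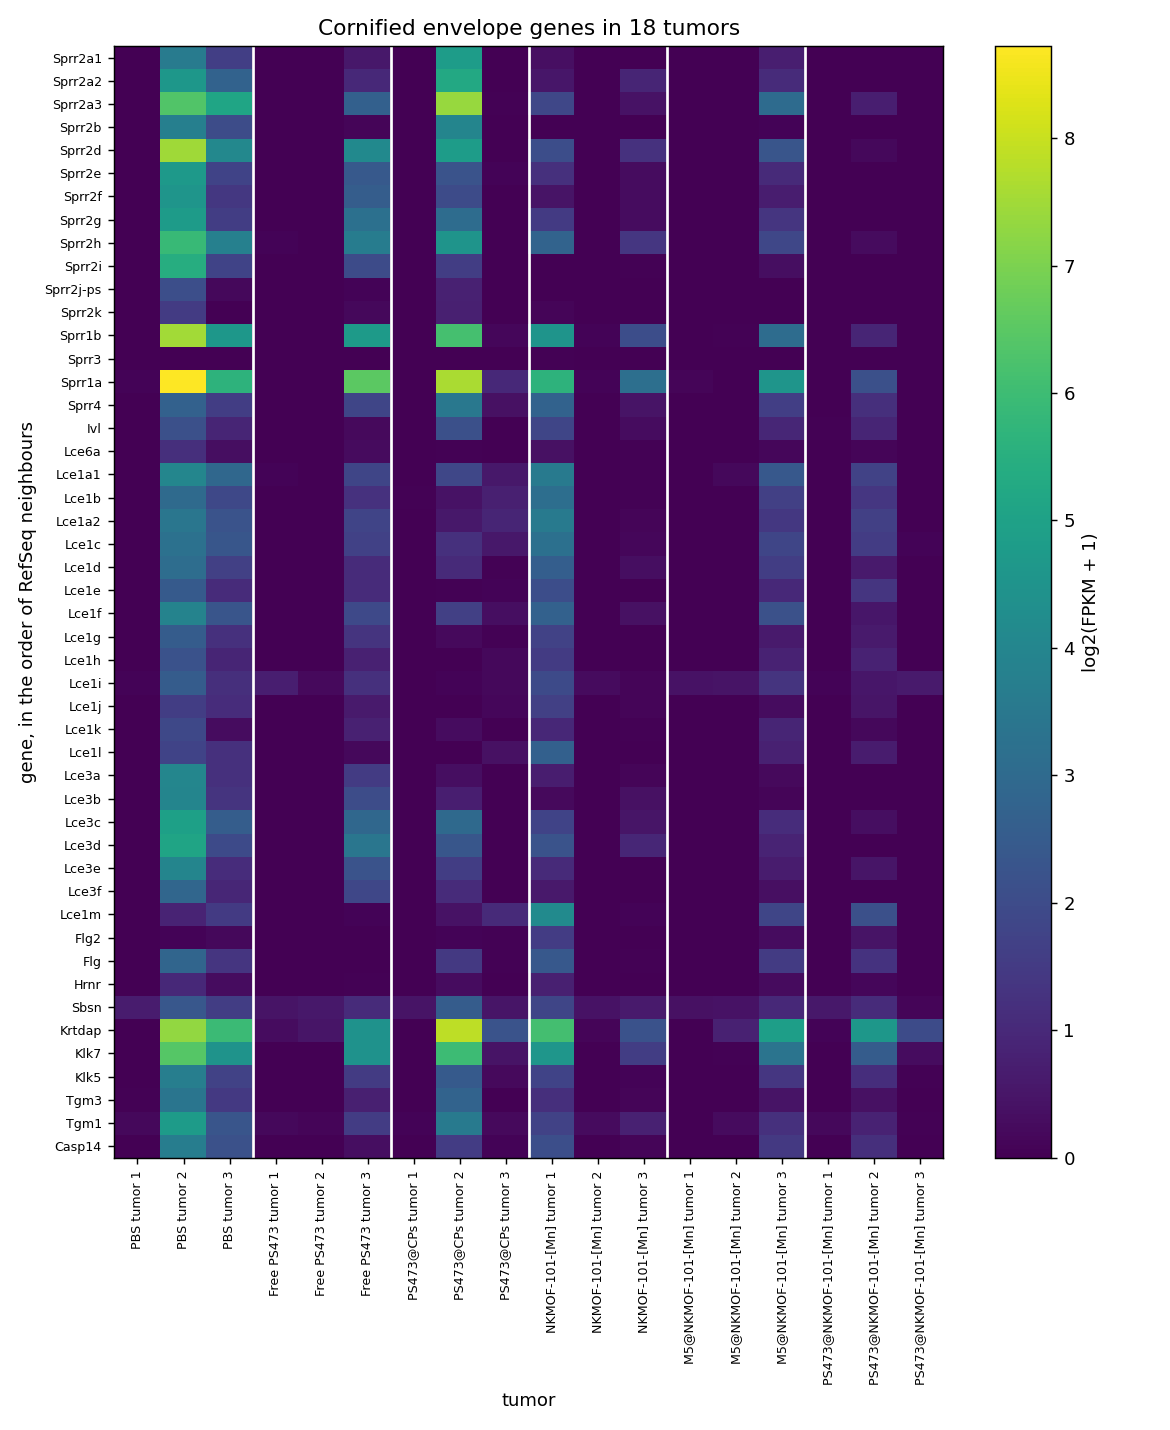
Color gives log2(FPKM + 1) of each of the 48 genes (rows, in chromosome order from chromosome 3 to chromosomes 7, 2, 14 and 10) in each of the 18 tumors (columns, white lines between groups). PBS tumor 2 and PS473@CPs tumor 2 are bright over the Sprr rows, PBS tumor 2 and NKMOF-101-[Mn] tumor 1 over the Lce1 rows, and 9 tumors are dark over nearly all rows.

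The most abundant small proline-rich genes by their mean were Sprr1a and Sprr1b, whose proteins cross-bridge the envelope. Sprr1a, the most abundant member by its mean, stood at 0.0632, 422 and 48.8 FPKM in the PBS tumors, 0, 0 and 90.1 with Free PS473, 0, 197 and 1.00 with PS473@CPs, 48.8, 0.0569 and 8.01 with NKMOF-101-[Mn], 0.0735, 0 and 22.2 with M5@NKMOF-101-[Mn], and 0, 3.34 and 0 with PS473@NKMOF-101-[Mn]. Sprr1b stood at 0, 182 and 23.8 FPKM in the PBS tumors, 0, 0 and 26.0 with Free PS473, 0, 69.5 and 0.0991 with PS473@CPs, 22.0, 0.0633 and 3.17 with NKMOF-101-[Mn], 0, 0.0350 and 7.55 with M5@NKMOF-101-[Mn], and 0, 0.871 and 0 with PS473@NKMOF-101-[Mn]. Both were highest in PBS tumor 2 and next highest in PS473@CPs tumor 2, and in every group at least 1 tumor was below 0.1 FPKM for both genes. Sprr4, of the same family, was above 0 in 9 tumors and peaked at 10.3 FPKM in PS473@CPs tumor 2. Sprr3, a gene of internal stratified epithelia such as the esophagus, reached only 0.0431 FPKM, in NKMOF-101-[Mn] tumor 1. At the depth worked out here it had under 3 fragments in every tumor.

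The 12 Sprr2 genes did not all peak in the same tumor. Sprr2a3 stood at 0, 81.1 and 33.7 FPKM in the PBS tumors, 0, 0 and 5.45 with Free PS473, 0, 165 and 0.0310 with PS473@CPs, 2.63, 0 and 0.330 with NKMOF-101-[Mn], 0, 0 and 7.20 with M5@NKMOF-101-[Mn], and 0, 0.670 and 0 with PS473@NKMOF-101-[Mn]. Sprr2d stood at 0, 176 and 15.8 FPKM in the PBS tumors, 0, 0 and 16.5 with Free PS473, 0, 27.1 and 0.0128 with PS473@CPs, 3.14, 0 and 1.35 with NKMOF-101-[Mn], 0, 0 and 3.89 with M5@NKMOF-101-[Mn], and 0, 0.138 and 0 with PS473@NKMOF-101-[Mn]. Sprr2i stood at 0, 42.1 and 2.40 FPKM in the PBS tumors, 0, 0 and 2.96 with Free PS473, 0, 2.02 and 0 with PS473@CPs, 0, 0 and 0.0457 with NKMOF-101-[Mn], 0, 0 and 0.246 with M5@NKMOF-101-[Mn], and 0, 0 and 0 with PS473@NKMOF-101-[Mn]. In PS473@CPs tumor 2 the Sprr2a3 level was above that in PBS tumor 2, whereas the Sprr2d and Sprr2i levels were far below it. The 4 genes at one end of the row of neighbours, Sprr2a1, Sprr2a2, Sprr2a3 and Sprr2b, were highest in PS473@CPs tumor 2, at 27.2, 37.1, 165 and 14.8 FPKM, against 11.4, 23.8, 81.1 and 12.6 FPKM in PBS tumor 2. The other 8 were highest in PBS tumor 2, where Sprr2h reached 57.6 FPKM, Sprr2g 26.9 FPKM, Sprr2e 25.1 FPKM and Sprr2f 22.2 FPKM. The same 4 genes had 21.7, 7.39, 3.68 and 3.02 FPKM in PS473@CPs tumor 2. These are single tumors of different groups, so the contrast has no replicate. The deposited length of Sprr2a3 is 0.296 times its GENCODE exon length, which raises its FPKM. For Sprr2a1 and Sprr2a2 the deposited length is 1.18 and 1.21 times the exon length, so levels of these 3 copies are not comparable with each other. Sprr2k and the pseudogene Sprr2j-ps peaked at 1.89 and 3.24 FPKM.

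Lce1 and Lce3 genes, which encode late envelope proteins, were unequally mixed from tumor to tumor. Summed over its 14 genes, Lce1 stood at 0.0683, 88.1 and 32.2 FPKM in the PBS tumors, 0.717, 0.160 and 18.5 with Free PS473, 0.0383, 8.73 and 4.69 with PS473@CPs, 84.4, 0.185 and 1.10 with NKMOF-101-[Mn], 0.358, 0.515 and 24.4 with M5@NKMOF-101-[Mn], and 0.0579, 16.8 and 0.603 with PS473@NKMOF-101-[Mn]. Summed over its 6 genes, Lce3 stood at 0, 114 and 12.7 FPKM in the PBS tumors, 0, 0 and 27.6 with Free PS473, 0, 14.9 and 0 with PS473@CPs, 8.31, 0 and 1.70 with NKMOF-101-[Mn], 0, 0 and 3.10 with M5@NKMOF-101-[Mn], and 0, 0.645 and 0 with PS473@NKMOF-101-[Mn]. Lce3 exceeded Lce1 in PBS tumor 2, Free PS473 tumor 3, PS473@CPs tumor 2 and NKMOF-101-[Mn] tumor 3, and Lce1 exceeded Lce3 in the other 14. Many of those 14 rest on very few fragments. The recovered fragments of both families came to 1 in PBS tumor 1 and 3 in Free PS473 tumor 2, for example.

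As a share of the fragments assigned to Lce1 and Lce3 genes, Lce3 took 50.7% (exact binomial 95% interval 48.8% to 52.7%, 2499 fragments) in PBS tumor 2 and 23.8% (exact binomial 95% interval 20.5% to 27.4%, 600 fragments) in PBS tumor 3. It took 54.2% (exact binomial 95% interval 50.2% to 58.2%, 618 fragments) in Free PS473 tumor 3 and 57.6% (exact binomial 95% interval 52.3% to 62.7%, 363 fragments) in PS473@CPs tumor 2. In PS473@CPs tumor 3 it took 0% (exact binomial 95% interval 0% to 3.62%, 100 fragments). The intervals of PBS tumors 2 and 3 did not overlap, nor did those of PS473@CPs tumors 2 and 3. The share was 7.00% (exact binomial 95% interval 5.71% to 8.47%, 1386 fragments) in NKMOF-101-[Mn] tumor 1 and 54.8% (exact binomial 95% interval 36.0% to 72.7%, 31 fragments) in NKMOF-101-[Mn] tumor 3, again apart within 1 group. It was 9.04% (exact binomial 95% interval 6.38% to 12.4%, 387 fragments) in M5@NKMOF-101-[Mn] tumor 3 and 2.93% (exact binomial 95% interval 1.27% to 5.69%, 273 fragments) in PS473@NKMOF-101-[Mn] tumor 2. The shares use recovered fragments rounded to whole numbers, and some sums fell between, as 35.5 for Lce3 in M5@NKMOF-101-[Mn] tumor 3. The intervals cover counting error only and take each recovered fragment as 1 independent count. The spacing of low values does not establish that, so the widths of the intervals are approximate.

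**Figure D3:**
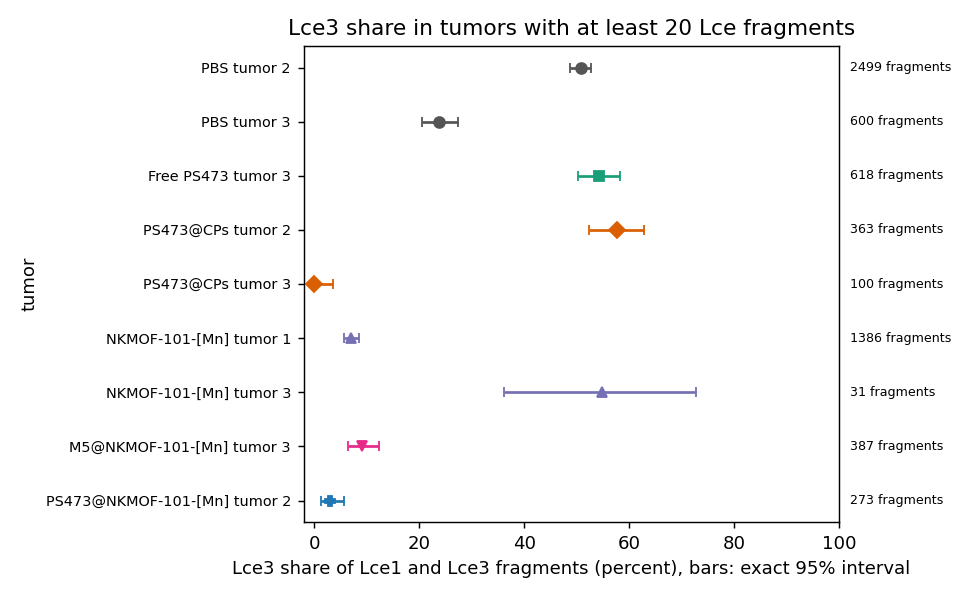
Share of Lce3 in the fragments of Lce1 and Lce3 genes (horizontal axis, percent) for the 9 tumors with at least 20 such fragments, with exact binomial 95% intervals as bars. The PBS tumors shown stand at 50.7% and 23.8%, and the NKMOF-101-[Mn] tumors at 7.00% and 54.8%.

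Single genes showed the same mixture. Lce3d, the most abundant Lce3 gene by its mean, stood at 0, 32.9 and 2.90 FPKM in the PBS tumors, 0, 0 and 9.76 with Free PS473, 0, 4.01 and 0 with PS473@CPs, 3.64, 0 and 0.901 with NKMOF-101-[Mn], 0, 0 and 0.808 with M5@NKMOF-101-[Mn], and 0, 0 and 0 with PS473@NKMOF-101-[Mn]. Lce1m, the gene on the far side of the Lce3 cluster, stood at 0, 0.809 and 1.80 FPKM in the PBS tumors, 0, 0 and 0.0515 with Free PS473, 0, 0.333 and 1.07 with PS473@CPs, 17.0, 0 and 0.0612 with NKMOF-101-[Mn], 0, 0 and 2.53 with M5@NKMOF-101-[Mn], and 0, 3.39 and 0 with PS473@NKMOF-101-[Mn]. Lce3d was highest in PBS tumor 2 and Lce1m in NKMOF-101-[Mn] tumor 1, where Lce3d was at 3.64 FPKM. Lce1a1 stood at 0, 15.1 and 6.59 FPKM in the PBS tumors, 0.0702, 0 and 2.54 with Free PS473, 0, 2.60 and 0.472 with PS473@CPs, 10.9, 0 and 0.0397 with NKMOF-101-[Mn], 0, 0.140 and 4.26 with M5@NKMOF-101-[Mn], and 0, 2.30 and 0 with PS473@NKMOF-101-[Mn]. Its highest values, in PBS tumor 2 and NKMOF-101-[Mn] tumor 1, differed far less than those of Lce1m. The other tested Lce1 genes peaked at 14.1 FPKM (Lce1f), 10.9 FPKM (Lce1a2), 8.57 FPKM (Lce1c), 7.84 FPKM (Lce1b) and 7.73 FPKM (Lce1d). The other tested Lce3 genes peaked, all in PBS tumor 2, at 29.7 FPKM (Lce3c), 15.1 FPKM (Lce3a), 14.8 FPKM (Lce3b) and 14.7 FPKM (Lce3e). Of the members too low for the tests, Lce1i and Lce1e reached 4.80 and 4.50 FPKM, and Lce1i was above 0 in 17 of 18 tumors.

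Filaggrin and its relatives were low everywhere in FPKM, which divides by their long gene lengths. Flg, the filaggrin gene, stood at 0, 6.22 and 1.52 FPKM in the PBS tumors, 0, 0 and 0.00518 with Free PS473, 0, 1.71 and 0.0412 with PS473@CPs, 4.24, 0 and 0.0308 with NKMOF-101-[Mn], 0, 0 and 1.84 with M5@NKMOF-101-[Mn], and 0, 1.42 and 0.0107 with PS473@NKMOF-101-[Mn]. Flg2 peaked at 1.92 FPKM in NKMOF-101-[Mn] tumor 1, and in PBS tumor 2 it was at 0.0678 FPKM. Thus Flg was highest in PBS tumor 2 and Flg2 in NKMOF-101-[Mn] tumor 1. Hrnr, the hornerin gene, reached 0.999 FPKM, but its deposited length is 4.73 times the GENCODE exon length, which lowers its FPKM. Ivl, the involucrin gene, peaked at 3.37 FPKM in PBS tumor 2 and was at 3.35 FPKM in PS473@CPs tumor 2. The deposited length of Ivl is 2.08 times the GENCODE exon length, which lowers its FPKM too.

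Krtdap, a secreted keratinocyte differentiation protein, was the most widespread abundant member. It stood at 0, 156 and 60.3 FPKM in the PBS tumors, 0.215, 0.404 and 20.9 with Free PS473, 0, 233 and 3.68 with PS473@CPs, 68.1, 0.0777 and 3.60 with NKMOF-101-[Mn], 0, 0.730 and 29.0 with M5@NKMOF-101-[Mn], and 0.0730, 23.3 and 3.00 with PS473@NKMOF-101-[Mn]. It was the one member above 1 FPKM in PS473@NKMOF-101-[Mn] tumor 3, where it made up 74.6% of the summed level, against 9.68% in PBS tumor 2. Sbsn, suprabasin, on the same chromosome, was above 0 in all 18 tumors, between 0.0926 and 4.75 FPKM. The deposited length of Sbsn is 31697 bases, 8.74 times the GENCODE exon length, so what its fragments cover in the tumors with few other members cannot be told from the table.

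Each enzyme gene of the set was highest in PBS tumor 2, but they did not all rank the other tumors alike. Tgm1, the membrane-bound transglutaminase that cross-links the envelope, stood at 0.140, 26.9 and 3.94 FPKM in the PBS tumors, 0.139, 0.0985 and 1.95 with Free PS473, 0.0594, 11.1 and 0.159 with PS473@CPs, 2.31, 0.197 and 0.726 with NKMOF-101-[Mn], 0.0232, 0.205 and 1.30 with M5@NKMOF-101-[Mn], and 0.135, 0.766 and 0.0390 with PS473@NKMOF-101-[Mn]. It was above 0 in every tumor, and the 6 tumors above 1 FPKM were the 6 with the highest Sprr1a. Tgm3 was above 0 in 13 tumors and peaked at 9.60 FPKM in PBS tumor 2. Klk7, a chymotrypsin-like protease that cuts corneodesmosomes during shedding, stood at 0, 84.2 and 21.5 FPKM in the PBS tumors, 0, 0 and 20.96 with Free PS473, 0, 62.0 and 0.375 with PS473@CPs, 22.8, 0 and 2.00 with NKMOF-101-[Mn], 0, 0.0259 and 9.12 with M5@NKMOF-101-[Mn], and 0, 4.83 and 0.216 with PS473@NKMOF-101-[Mn]. Casp14, the protease that takes part in filaggrin breakdown, stood at 0, 12.0 and 3.52 FPKM in the PBS tumors, 0, 0 and 0.260 with Free PS473, 0, 1.92 and 0.0515 with PS473@CPs, 3.23, 0 and 0.0824 with NKMOF-101-[Mn], 0, 0 and 1.72 with M5@NKMOF-101-[Mn], and 0, 1.24 and 0 with PS473@NKMOF-101-[Mn]. Klk7 was high in both PBS tumor 2 and PS473@CPs tumor 2, while Casp14 was lower in PS473@CPs tumor 2 than in PBS tumor 3 and NKMOF-101-[Mn] tumor 1. Klk5, the trypsin-like partner of Klk7, peaked at 12.2 FPKM in PBS tumor 2.

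Expression of the set moved with that of keratinocyte markers. The summed level of 14 basal keratinocyte genes (led by Krt14, Krt5, Sfn and Dst) was 19.5, 3167 and 1177 FPKM in the PBS tumors, 28.8, 27.1 and 339 with Free PS473, 24.6, 3493 and 111 with PS473@CPs, 776, 23.2 and 122 with NKMOF-101-[Mn], 24.2, 26.2 and 255 with M5@NKMOF-101-[Mn], and 28.0, 218 and 26.4 with PS473@NKMOF-101-[Mn]. The 9 tumors highest in the basal sum were the 9 highest in the cornified envelope sum, and 7 of them held the same rank in both, the others being the first and second, which traded places. Krt14, a keratin of the basal layer, was listed at 0 in 5 tumors and reached 2058 FPKM in PBS tumor 2, and Krt5, its partner, was listed at 0 in 6. Sfn ranged from 1.69 to 611 FPKM, and Dst, which other cells also express, from 5.74 to 16.0 FPKM. A tumor with fewer keratinocytes and a tumor with less RNA of these genes per keratinocyte cannot be told apart in bulk RNA.

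**Figure D4:**
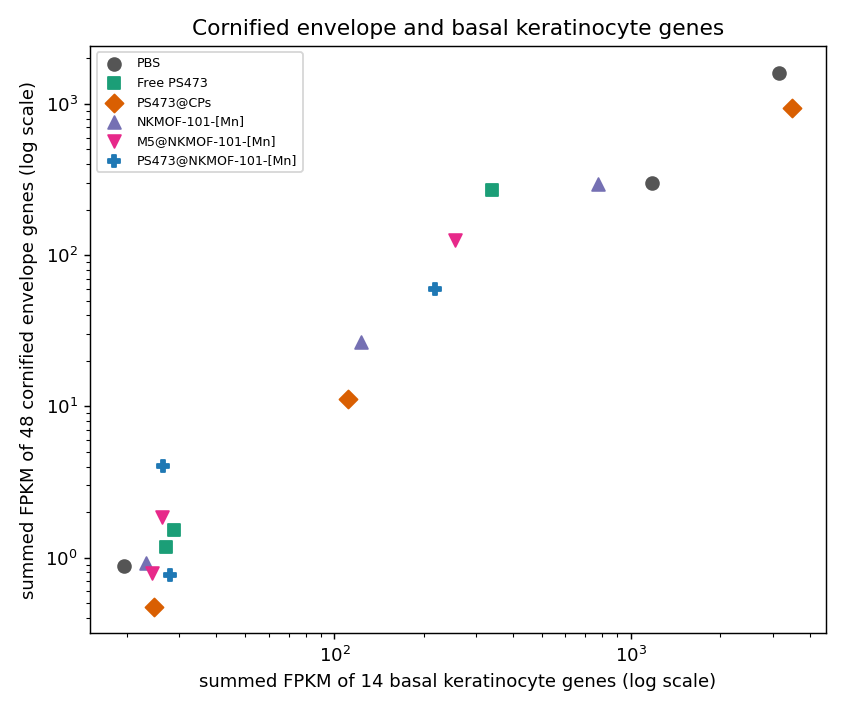
Summed FPKM of the 48 genes (vertical axis, log scale) against summed FPKM of 14 basal keratinocyte genes (horizontal axis, log scale), 1 point per tumor with color and shape for the group. Tumors of each group lie at the low end of the band, PBS and PS473@CPs tumors reach its upper end, and the PBS tumors run from 19.5 to 3167 FPKM on the horizontal axis.

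Per unit of the basal sum, the envelope sum was not constant. The ratio was 0.509 in PBS tumor 2, 0.254 in PBS tumor 3, 0.792 in Free PS473 tumor 3, 0.269 in PS473@CPs tumor 2, 0.101 in PS473@CPs tumor 3, 0.383 in NKMOF-101-[Mn] tumor 1, 0.217 in NKMOF-101-[Mn] tumor 3, 0.492 in M5@NKMOF-101-[Mn] tumor 3 and 0.273 in PS473@NKMOF-101-[Mn] tumor 2. It differed between tumors of PBS and of PS473@CPs as it did between groups.

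Other lists were measured in the same tumors, and their part in the results was not tested. The 16 spinous and granular genes summed to 2.94 to 1090.0 FPKM, led by Krt1 (0 to 296), Perp (0.0261 to 275), Ly6d (0 to 274) and Lypd3 (0 to 122). The 13 wound and activated keratinocyte genes summed to 0.262 to 3583 FPKM, led by Krt16 (0 to 1133), Krt6a (0 to 894), Krt6b (0 to 1000.5) and Krt17 (0 to 1198). Both sums were highest in PS473@CPs tumor 2, and PBS tumor 2 came next with 1083 and 3572 FPKM. Of 20 hair follicle genes 8 were at 0 in every tumor and the sum never passed 1.47 FPKM, with Foxn1 (0 to 0.692), Hoxc13 (0 to 0.360), Krtap3-2 (0 to 0.190) and Krt25 (0 to 0.120) the highest. The sebaceous list summed to 14.1 to 106 FPKM, led by Soat1 (10.2 to 16.5), Krt79 (0 to 67.0), Far2 (2.95 to 9.95) and Cidea (0 to 4.45). All 12 melanocyte lineage genes averaged 1 FPKM or more and summed to 5082 to 8094 FPKM, led by Dct (2087 to 3416), Pmel (893 to 1836), Tyrp1 (702 to 1315) and Mlana (524 to 911), which matches the label of the cell line.

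Among blood cell and other markers, the neutrophil list summed to 0.664 to 760 FPKM and was highest in PBS tumor 2, led by S100a8 (0 to 252), S100a9 (0 to 209), Stfa1 (0 to 182) and Stfa3 (0 to 210.4), genes that activated keratinocytes also express. Ly6g, a defining neutrophil gene, was listed at 0 in all 18 tumors. The leukocyte list summed to 37.0 to 283 FPKM and was highest in Free PS473 tumor 3, led by Lyz2 (26.2 to 249.8), Csf1r (1.98 to 18.9), Itgam (1.45 to 15.4) and Adgre1 (1.29 to 13.7). Skeletal muscle genes summed to 4.04 to 70.6 FPKM, led by Acta1 (0.0316 to 30.9), Tpm2 (0.476 to 16.9), Mylpf (1.05 to 4.34) and Ckm (0.626 to 3.76), and adipocyte genes to 8.90 to 94.0 FPKM, led by Fabp4 (4.85 to 52.2), Lpl (3.34 to 23.2), Cfd (0 to 23.0) and Adipoq (0 to 2.57). Their highest tumors, PBS tumor 3 and Free PS473 tumor 3, were not the highest for the envelope genes.

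The remaining genes of the envelope pathway were taken from 4 lists. Of 16 other envelope proteins in the table, Loricrin, the main protein of the finished envelope, stood at 0, 72.9 and 66.7 FPKM in the PBS tumors, 0.0140, 0 and 1.36 with Free PS473, 0.0279, 43.7 and 10.0 with PS473@CPs, 151, 0.0127 and 1.30 with NKMOF-101-[Mn], 0, 0.0420 and 42.9 with M5@NKMOF-101-[Mn], and 0.0238, 53.3 and 1.05 with PS473@NKMOF-101-[Mn]. It was highest in NKMOF-101-[Mn] tumor 1, as Lce1m and Flg2 were, and not in PBS tumor 2. Cnfn (cornifelin) reached 117 FPKM and Asprv1, a protease that processes filaggrin, 97.4 FPKM, both in PBS tumor 2. Anxa1, which many cell types express, stayed between 58.2 and 258 FPKM. Of 15 lipid envelope genes the 4 most abundant were Smpd1 (42.8 to 101), Ebp (32.4 to 41.7), Ugcg (20.6 to 35.2) and Elovl1 (13.7 to 31.6), and their sum stayed between 151 and 260.4 FPKM. Of 15 desquamation genes, Cst3 (142 to 289) and Ctsl (22.4 to 50.7) were present in every tumor, whereas Klk6 and Klk10 ran from 0 to 104 and 0 to 43.3 FPKM. Of 20 regulators, Cebpb (6.52 to 50.4), Maf (4.56 to 9.90), Notch2 (2.31 to 8.98) and Cebpa (0.917 to 15.0) were the most abundant.

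The first comparison asked how tumors with the ribozyme in its framework differed from vehicle tumors. Against PBS, PS473@NKMOF-101-[Mn] had lower mean log2(FPKM + 1) for all 32 tested members, with a median log2 fold change of -1.92 and a range from -4.11 ± 2.47 (SE) for Sprr1a to -0.07 ± 0.92 (SE) for Lce1m. Over all 12357 tested genes, 6621 lay below PBS and the median was -0.01. No member passed limma's test with Benjamini-Hochberg adjustment (0 of 32, against 0% of all tested genes), the smallest of their adjusted p values being 0.993. At an unadjusted limma p under 0.05 with a fold change above 2, 8 members lay below PBS, against 0.299% of all tested genes in either direction: Lce3a, Lce3b, Lce3c, Sprr2d, Sprr2e, Sprr2f, Sprr2h and Sprr2i. For Sprr2i the log2 fold change was -2.40 ± 0.96 (SE), and for Lce3a it was -1.74 ± 0.70 (SE). Lce3a was listed at 0, 15.1 and 1.30 FPKM in the PBS tumors and at 0 in all 3 PS473@NKMOF-101-[Mn] tumors. For 0 of the 32 members did the groups fail to overlap, against 4.66% of all tested genes, and PBS tumor 1 had at most 0.584 FPKM of any member. The 8 became 0 without PBS tumor 2, 4 without PBS tumor 3, 29 without PBS tumor 1, 0 with only these groups in the fit, 1 with a pseudocount of 0.1 and 5 with no filter, and leaving out a PS473@NKMOF-101-[Mn] tumor gave 2, 3 and 2. PBS tumor 2 was the highest tumor of 22 of the 32 tested members, which passed the filter on the mean through such high tumors, so these counts over tested members are a description.

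The other 4 groups against PBS shared its 3 tumors, and so are not independent of the first comparison. The members' median log2 fold change was -1.71 in the M5@NKMOF-101-[Mn] tumors, -1.52 with the empty framework, -1.40 with Free PS473 and -1.33 with PS473@CPs, where the medians over all tested genes were -0.01, 0.03, 0.03 and -0.01. No member passed the adjusted limma threshold in any of the 4 (0% of all tested genes did in each), and the smallest adjusted p of a member was 0.999 or 1. At an unadjusted limma p under 0.05 with a fold change above 2, 1 member lay below PBS with Free PS473 (Casp14, -1.85 ± 0.79 (SE)), against 0.146% of all tested genes. With PS473@CPs 1 member did so (Lce3a, -1.63 ± 0.70 (SE)), against 0.194% of genes. With NKMOF-101-[Mn] 2 did so (Sprr2i, -2.38 ± 0.96 (SE), and Lce3b), against 0.0971% of genes. With M5@NKMOF-101-[Mn] 3 did so (Sprr2i, -2.29 ± 0.96 (SE), Lce3a and Lce3b), against 0.138% of genes. The groups overlapped for all 32 members in each, whereas for 4.91% (Free PS473), 5.11% (PS473@CPs), 6.02% (NKMOF-101-[Mn]) and 8.11% (M5@NKMOF-101-[Mn]) of all tested genes they did not. Lce1m alone had a mean above PBS in 1 of them, with 0.64 ± 0.92 (SE) in NKMOF-101-[Mn]. Single tumors set these small counts. The Free PS473 count became 0 without its tumor 1 or 2 or PBS tumor 3 and 6 without its tumor 3, and the PS473@CPs count became 0 without its tumor 1 or 3 and 13 without its tumor 2. The NKMOF-101-[Mn] count became 0 without its tumor 2 and 1 without its tumor 3, and that of the mutant ribozyme became 0 without its tumor 1 or 2. Without PBS tumor 2, or with only the groups compared in the fit, the unadjusted count was 0 in all 4, and without PBS tumor 1 it was 26 with Free PS473, 19 with PS473@CPs, 20 with the empty framework and 29 with the mutant ribozyme.

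**Figure D5:**
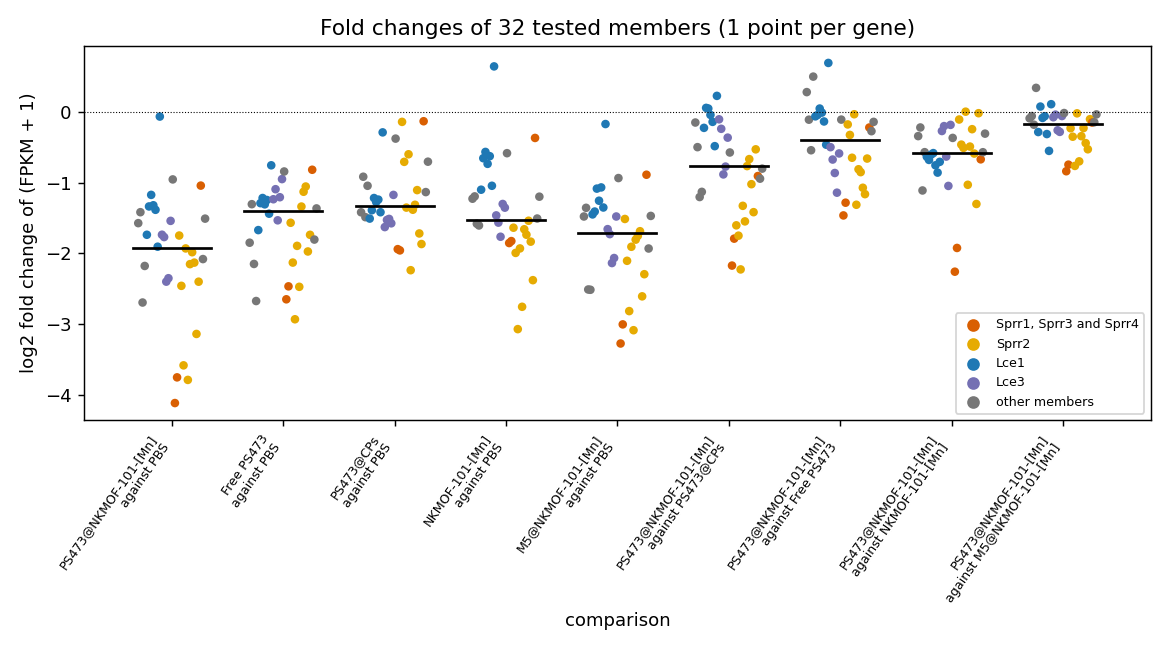
Log2 fold change of (FPKM + 1) (vertical axis) of each of the 32 tested members in the 9 comparisons (horizontal axis), with 1 point per gene, color for the family and a line at the median. Medians against PBS lie between -1.92 and -1.33, and the 1 point above 0 in those 5 comparisons is Lce1m with NKMOF-101-[Mn].

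PS473@NKMOF-101-[Mn] was then compared with the other treated groups, which asks what the framework added to the free ribozyme, how it compared with the polymer carrier, and what the ribozyme and its catalytic activity added to the framework. The members' median log2 fold change was -0.17 against M5@NKMOF-101-[Mn], -0.40 with Free PS473 as the reference, -0.58 with the empty framework and -0.77 with PS473@CPs. By limma with Benjamini-Hochberg adjustment 0 members passed in each (0% of all tested genes did). At an unadjusted p under 0.05 with a fold change above 2 also 0 did, where 0.0324%, 0.753%, 0.299% and 0.267% of all tested genes did in the same order. The groups failed to overlap for 0 members in each, and for 4.48%, 6.82%, 7.91% and 4.12% of all tested genes. The member with the smallest p was Lce1f against the mutant ribozyme (-0.55 ± 0.95 (SE), limma adjusted p = 1) and Lce3d against Free PS473 (-1.14 ± 1.13 (SE), limma adjusted p = 0.963). It was Lce1d against the empty framework (-0.76 ± 0.76 (SE), limma adjusted p = 0.999) and Sprr2a1 against PS473@CPs (-1.60 ± 1.02 (SE), limma adjusted p = 0.996). The 95% interval of the Sprr2a1 difference ran from -3.79 to 0.59 and that of Lce1f from -2.57 to 1.47, so both intervals held 0 and also differences below -2. Leaving out PS473@CPs tumor 2, Free PS473 tumor 3, NKMOF-101-[Mn] tumor 1 or M5@NKMOF-101-[Mn] tumor 3 turned the median of its own comparison, to 0.11, 0.17, 0.0048 and 0.17.

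Across all 6 groups at once, limma's F test put 0 of the 32 members at an unadjusted p under 0.05, where 1.99% of all tested genes were, and 0 members and 0% of all tested genes at an adjusted p under 0.05. Sprr2i had the smallest p of the members and Krtdap the largest. No gene of the 13 lists with tested genes passed the adjusted limma threshold in any comparison in either direction. Of the 11 tested other envelope proteins, all 11 lay below PBS with PS473@NKMOF-101-[Mn] with a median log2 fold change of -1.82, and the 10 tested lipid genes had a median of -0.13. The corresponding medians were -2.02 for the 14 basal keratinocyte genes and 0.22 for the 12 melanocyte lineage genes. The lowest medians were -3.77 for the 7 tested wound and activated keratinocyte genes and -3.20 for the 6 tested neutrophil genes, all of which lay below PBS, and the 13 tested spinous and granular genes had a median of -2.05.

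The tested members varied widely between tumors of the same group, and most had passed the filter on the mean through a few high tumors, so their spread is given as a description. The residual SD of the 32 genes on the log2(FPKM + 1) scale had a median of 1.29 and a range from 0.72 to 3.33, where the median over all 12357 tested genes was 0.18. Of the 32 tested members, 31 were among the 500 genes with the largest residual SD and 12 among the 100 with the largest. The median standard error of a member's log2 fold change was 0.96.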

How the data were processed

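RNA of 18 B16F10 tumors was enriched for poly(A) and sequenced. The authors deposited FPKM values, 1 column per tumor, with 1 gene length per gene. The genome build is GRCm39 in the submitters' processing notes, and the aligner, counter and annotation are not given in the sources used here. Columns were matched to tumors by the names in the table, and groups came from the sample titles. Fragments per tumor were worked out from the spacing of low values. Between 50.7% and 55.0% of low values (under 6 fragments) came out whole within 0.005 fragments. Between 98.3% and 99.4% came out as multiples of 0.25 fragments. The scale of the depth is therefore uncertain, and no count model was used.

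The 12357 genes averaging 1 FPKM or more were fitted as log2(FPKM + 1), which understates changes of low genes, with limma 3.58.1 in R 4.3.3, 1 mean per group, 18 tumors, variance moderated with a trend. Benjamini-Hochberg adjustment ran over all tested genes, and a call took a fold change above 2 with an adjusted p under 0.05. The fit was tested on simulated data. Python 3.11.15 with numpy 2.4.6, pandas 2.3.3 and matplotlib 3.10.9 did the rest. Promoters are those of RefSeq on GRCm38.p6 and coding sequences those of GENCODE M21, and no coordinates were joined to the table.

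Genes were named with their values if their mean was at least 1 FPKM, together with the 3 highest other members, the 4 most abundant genes of each list, and the member with the smallest unadjusted p of each comparison. Further genes named (members Sprr3, Sprr2k, Sprr2j-ps, Flg2, Hrnr and Ivl, and Ly6g of the neutrophil list) were added after their values were seen. The members and lists were chosen with earlier results of these data known. Alternatives were the pseudocount, the filter, upper-quartile scaling, the samples in the fit, a replicate block, a basal keratinocyte covariate and leaving out each tumor. Unadjusted counts under these settings were added after seeing the data. The 18 tumors had no pair with equal values. One coding sequence is not reported here.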

Additional observations from a re-analysis of the deposited data

How the results depend on the processing

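The median of the members' log2 fold changes for PS473@NKMOF-101-[Mn] against PBS was -3.54 with a pseudocount of 0.1, beyond the within-group SD of the members' mean log2 level (1.41) from its value of -1.92. Apart from leaving out tumors, 1 median changed sign, that against PS473@CPs with the basal keratinocyte covariate, at 0.15. With that covariate the medians against PBS were -0.77 for PS473@NKMOF-101-[Mn], -0.23 for Free PS473, -0.97 for PS473@CPs, -0.66 for the empty framework and -0.30 for the mutant ribozyme. The adjusted limma count of members was 0 under every alternative run, leaving out each tumor included. At an unadjusted p under 0.05 with a fold change above 2 the counts were 8, 1, 1, 2 and 3 against PBS in the same order of groups and 0 in the other 4 comparisons. They were 1, 0, 0, 1 and 0 with a pseudocount of 0.1, 5, 1, 1, 1 and 3 with no filter, and 0 in all 5 with only the groups compared.

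Leaving out 1 tumor moved the medians against PBS between -2.92 and -0.80, -2.43 and -0.52, -2.37 and -0.16, -2.50 and -0.24, and -2.68 and -0.60 in that order, the lowest without PBS tumor 1 and the highest without PBS tumor 2. Between treated groups they lay between -1.16 and 0.11 against PS473@CPs, -0.64 and 0.17 against Free PS473, -0.95 and 0.0048 against the empty framework, and -0.46 and 0.17 against the mutant ribozyme.

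The replicate numbers share only a number: same-numbered pairs of tumors had correlations of deviations from -0.73 to 0.72 with a median of -0.02, and 18 of 45 were over 0.1. Of the 90 pairs with different numbers, 41 were over 0.1, and their median was -0.005. With the replicate block the adjusted count stayed at 0, the medians were as without it (-1.92 for PS473@NKMOF-101-[Mn] against PBS), and the unadjusted counts against PBS were 10, 2, 1, 3 and 4. The basal covariate gave unadjusted counts of 2, 0, 10, 4 and 0, with 3 for PS473@NKMOF-101-[Mn] against Free PS473 and 1 (Krtdap, higher) against PS473@CPs. In the low tumors most members had under 3 fragments, so their single values are uncertain.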
